A study of Mus musculus with 18 samples.

Results

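Collagens are encoded by a family of genes that share a naming scheme, and this account describes the 42 of them that could be measured in the lungs of allergen-challenged mice. A member is any gene whose symbol in the probe annotation has the form Col, a number, a, and a second number, and of the probe sets that name the gene alone the one brightest on average stands for it. The 42 members were among 18193 genes represented in this way and were covered by 82 probe sets, with 15 members having 1 probe set and 27 having several. They were grouped as 11 fibrillar, 6 basement membrane, 5 beaded (type VI), 9 fibril-associated (FACIT) and 11 other chains. Membership follows from the symbol alone, while the probe set that stands for a gene was picked by its mean over all 18 arrays.

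The lungs came from 18 male mice aged 16 weeks, 9 of the inbred strain A/J and 9 of the inbred strain C57BL/6, with 1 array per mouse. Every animal, including those of the PBS groups, had been sensitized with ovalbumin, an egg protein, through 3 weekly intraperitoneal injections of 100 µg adsorbed to alum. From 7 days after the last injection the mice inhaled an aerosol for 30 min on 3 days. The 6 groups of 3 were A/J and C57BL/6 mice that inhaled PBS, mice of either strain that inhaled 1% ovalbumin, and mice of either strain that inhaled 1% ovalbumin and received 100 µg of resiquimod intraperitoneally 24 h before each challenge. Resiquimod activates Toll-like receptor 7. Resiquimod was never given without ovalbumin, and the labels used here list no vehicle injection in the other groups, so a resiquimod effect here is always the effect of resiquimod, with its injections, in sensitized and challenged mice. The arrays of a group are biological replicates according to their labels, and p-values here speak of the spread among those arrays alone.

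Collagens are built of 3 chains wound into a triple helix. Fibrillar chains form the load-bearing fibres of the interstitium, in which type V chains start and limit fibrils of type I and III, FACIT chains decorate the fibril surface, type VI chains form beaded filaments close to cells, and type IV chains form the sheet of basement membranes. In the lung, fibroblasts and smooth muscle cells lay down most interstitial collagen, while endothelial and alveolar epithelial cells share the type IV sheet, and airway inflammation in asthma is known for deposition of interstitial collagen beneath the airway epithelium.

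All values are log2 intensities made with RMA, so a difference of 1 is a doubling. A change was called when its limma p-value, adjusted by Benjamini-Hochberg over 45037 probe sets, was under 0.05. Differences are given ± SE with both groups having n = 3, and levels ± SD with n = 3. Probe sets differ in how brightly they report the same amount of RNA, so levels are compared between groups for 1 probe set and never between genes. Over all values the 25th percentile was 3.33, the median 4.78 and the 75th percentile 6.85. Of the members, 24 had a mean above that median and 18 below it, 6 of these below the 25th percentile, which leaves little room for a lower value.

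Some of these libraries stood apart from the rest. On 8 of the 18 arrays the keratin genes Krt4 and Krt13 and the gene Krtdap, all markers of squamous epithelium, lay between 9.97 and 12.32, whereas on the other 10 arrays they lay between 2.97 and 5.48. The 8 arrays were A/J PBS 1, A/J ovalbumin 1 and 3, A/J resiquimod 1, C57BL/6 PBS 1 and 3, C57BL/6 ovalbumin 1 and C57BL/6 resiquimod 2. The mean of 11 squamous markers ran from 4.13 to 7.51 in the A/J PBS group, 4.20 to 7.59 in A/J ovalbumin, 4.18 to 7.33 in A/J resiquimod, 4.54 to 8.54 in C57BL/6 PBS, 4.17 to 8.42 in C57BL/6 ovalbumin and 3.96 to 8.11 in C57BL/6 resiquimod. None of the 11 was called in any treatment comparison, and the mean of 12 skeletal muscle markers lay between 7.79 and 9.52 on these 8 arrays. It lay between 4.18 and 5.47 on 9 of the other 10 and at 8.21 on A/J PBS 3, which therefore holds muscle but not squamous transcripts. A fit restricted to the 10 other arrays, added after seeing the data, keeps only 1 A/J ovalbumin and 1 C57BL/6 PBS array and 4 residual degrees of freedom, and assumes that those lone arrays vary like the other groups. It still contains A/J PBS 3. The lung epithelial gene Sftpc lay between 13.72 and 13.86 on all 18 arrays. The 3′ minus 5′ difference of the actin control had group means between 0.38 and 0.51, so that the A/J resiquimod group (0.48) lay above A/J ovalbumin (0.38) and the C57BL/6 resiquimod group (0.38) below C57BL/6 ovalbumin (0.51). In the C57BL/6 ovalbumin group the second array stood apart, at 0.67 beside 0.45 and 0.42. Its GAPDH control read 0.56 on the same measure, where the other 17 arrays lay between -0.06 and 0.10. Without that array 14 members were called for resiquimod against ovalbumin in C57BL/6, all among the 15 called with it, and 0 in place of 1 for ovalbumin against PBS.

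Inhaled ovalbumin raised 6 collagen chains in A/J lungs (3.2% of all genes were called higher), 3 fibrillar and 3 beaded, by 0.56 to 1.08 on the log2 scale, and lowered 1 basement membrane chain (1.18% of all genes were called lower). These 7 of 42 members (16.7%) stand beside 4.38% of all 18193 genes called in that comparison. The median change over all 42 members was -0.01, against -0.0043 over all genes. Because whole lung was measured, fewer cells of a type and less RNA per cell cannot be told apart, here and in what follows.

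Col1a1, which encodes the α1 chain of type I collagen, read 8.11, 8.35 and 8.41 in the A/J PBS lungs and 9.40, 8.84 and 9.33 after ovalbumin. Col3a1, the single chain of type III collagen, went from 11.20, 11.17 and 11.21 to 12.15, 11.87 and 12.28. Col5a2, a type V chain of the kind that nucleates these fibrils, went from 8.08, 7.98 and 8.09 to 9.03, 8.59 and 9.08. All 3 ovalbumin arrays lay above all 3 PBS arrays for each of these genes, and within the ovalbumin group the second array was the lowest for each. The changes were 0.90 ± 0.15, adjusted p = 0.00285, 0.91 ± 0.15, adjusted p = 0.0021 and 0.85 ± 0.11, adjusted p = 0.000184. Among the chains of type VI collagen, Col6a1 went from 9.92, 9.95 and 9.98 to 10.67, 10.49 and 10.68, Col6a2 from 9.62, 9.66 and 9.63 to 10.82, 10.56 and 10.79, and Col6a3 from 9.30, 9.55 and 9.35 to 10.01, 9.78 and 10.09. The groups did not overlap for any of the 3, which all co-assemble in the same beaded filament. Col6a2 had the largest change of any member, 1.08 ± 0.11, adjusted p = 2.46e-05 or 2.12-fold, followed within the class by Col6a1 at 0.66 ± 0.09, adjusted p = 0.000413 and Col6a3 at 0.56 ± 0.12, adjusted p = 0.0187. Non-overlap of the 2 groups was seen for 24% of all genes in this comparison.

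Col4a4, an α4 chain that joins α3 and α5 in the basement membrane of the alveolus, read 9.35, 9.26 and 9.14 under PBS and 8.84, 8.90 and 8.90 after ovalbumin, a change of -0.37 ± 0.10, adjusted p = 0.0496. Of its other 2 probe sets 1 was also called lower (-0.33, adjusted p = 0.0331). With 1 array left out at a time, 14 of the 18 fits did not call Col4a4 at its brightest probe set, all except those without A/J resiquimod 1 or 2 or C57BL/6 PBS 1 or 2. It was also not called with the replicate number as a block. The call of Col6a3 was lost in 4 of the 18, those without A/J PBS 1 or 3 or A/J ovalbumin 1 or 3. Of the 35 members not called, 10 had an unadjusted p under 0.05, among them Col1a2 (0.41 ± 0.12), Col14a1 (0.44 ± 0.12), Col15a1 (0.41 ± 0.12) and Col18a1 (0.25 ± 0.08). The share of all genes under that unadjusted threshold was not computed, so the count cannot be set beside it. The second probe set of Col1a2 was called at 0.89 (adjusted p = 0.00101).

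Of the 6 A/J arrays in this comparison 3 hold squamous transcripts. In the fit to the 10 arrays without them 1 of the 7 members was still called, Col6a2 at 0.91 ± 0.11. The others had the same direction there, with Col1a1 at 0.46 ± 0.11, Col3a1 at 0.68 ± 0.13, Col5a2 at 0.56 ± 0.14, Col6a1 at 0.52 ± 0.11, Col6a3 at 0.33 ± 0.14 and Col4a4 at -0.30 ± 0.11. The changes of Col1a1, Col5a2 and Col6a3 were thus over 1.5 times smaller than in all 18 arrays. The part of squamous or muscle tissue in the rise was not tested.

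In C57BL/6 lungs ovalbumin changed 1 member, which is 2.38% of the family beside 1.59% of all genes (1.44% called higher and 0.154% lower). Col8a1, a short chain of the network in subendothelial matrix, read 5.81, 5.82 and 5.85 under PBS and 5.34, 5.33 and 5.28 after ovalbumin, a change of -0.51 ± 0.11, adjusted p = 0.0403 with no overlap, as for 17.8% of all genes. The call was lost in 10 of 18 fits that left out 1 array (A/J PBS 2 or any of the 9 C57BL/6 arrays), and its other 2 probe sets were also lower but not called. The count became 2 without A/J ovalbumin 2 or without A/J resiquimod 1, and 0 in the fit without the squamous arrays, where Col8a1 was -0.51 ± 0.18, adjusted p = 0.405. The chains that rose in A/J had estimates above 0 in C57BL/6 too, and none was called. Col6a2 went from 9.93, 10.08 and 9.82 to 10.31, 10.49 and 10.36 (0.44 ± 0.11, adjusted p = 0.0787), and its second probe set, at 0.51, passed with adjusted p = 0.0424. Col5a2 went from 8.45, 8.54 and 8.43 to 8.83, 8.90 and 8.94 (0.41 ± 0.11, adjusted p = 0.0887), whereas Col1a1 (0.30 ± 0.15), Col3a1 (0.26 ± 0.15), Col6a1 (0.26 ± 0.09) and Col6a3 (0.15 ± 0.12) had smaller estimates. The A/J and C57BL/6 PBS groups did not start level, since Col1a1 averaged 8.29 ± 0.16 in A/J and 9.05 ± 0.25 in C57BL/6, and 9.19 ± 0.30 and 9.35 ± 0.05 after ovalbumin. The difference between strains in the ovalbumin effect was tested directly by limma, and 0 of 42 members were called (0.0605% of all genes were, 0.044% higher and 0.0165% lower). An unadjusted p under 0.05 was reached by 11 members, a count with no share of all genes beside it. The smallest p belonged to Col6a2, with a difference of 0.64 ± 0.16, adjusted p = 0.425, and Col3a1 was at 0.64 ± 0.21, adjusted p = 0.707.

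Col18a1 is a further case in which probe sets differ. Its brighter probe set was not called for ovalbumin in A/J (0.25 ± 0.08) or C57BL/6 (0.27 ± 0.08). The second probe set was called in both strains, at 0.35, adjusted p = 0.0378, in A/J and 0.44, adjusted p = 0.0147, in C57BL/6.

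**Figure D1:**
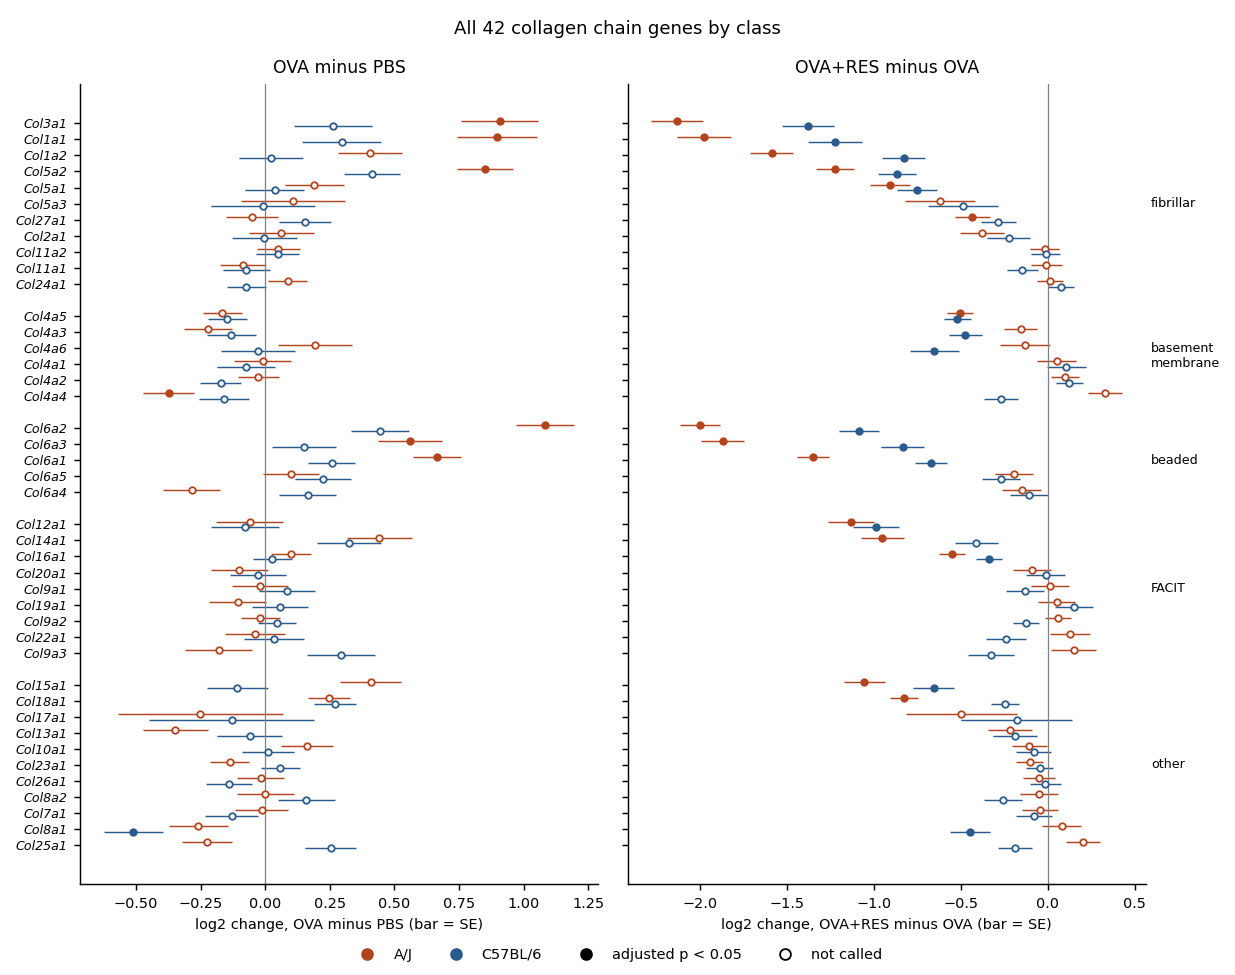
Log2 change of each of the 42 collagen chain genes (rows, by class) for ovalbumin minus PBS (left) and for resiquimod with ovalbumin minus ovalbumin (right), in A/J and C57BL/6, n = 3 arrays per group. Points are limma estimates, bars are SE, and filled points have an adjusted p under 0.05: all 15 filled points of either strain on the right lie below 0.

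Resiquimod given with ovalbumin lowered 15 of 42 collagen chains in A/J lungs and 15 in C57BL/6 lungs, against ovalbumin alone, and raised none. In A/J this was 35.7% of the members beside 9.77% of all genes (4.38% called higher and 5.39% lower). In C57BL/6 it was 35.7% beside 10.4% (5.8% called higher and 4.6% lower). The median change of the members was -0.15 in A/J and -0.26 in C57BL/6, where all genes had medians of -0.0026 and -0.02. In both strains 12 genes were called, 80% of either list: Col1a1, Col1a2, Col3a1, Col5a1, Col5a2, Col6a1, Col6a2, Col6a3, Col12a1, Col15a1, Col16a1 and Col4a5. Both comparisons use the ovalbumin arrays that also serve the comparison with PBS. The 2 groups did not overlap for any of the called members, as for 25.7% of all genes in A/J and 30.6% in C57BL/6.

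The promoters of these genes are shown for 4 of the 12 that moved together in both strains, 1 or more from the fibrillar, beaded and FACIT classes. Each line gives the 120 bases before the RefSeq gene start, 5′ to 3′ on the gene's strand, from the GRCm38.p6 table. Capitals mark motifs on either strand. The first motif is CCAAT, which reads ATTGG on the other strand. The second motif is TATAA, which reads TTATA on the other strand, so that both can overlap. The third motif is GGGCGG, which reads CCGCCC on the other strand.
Col1a2: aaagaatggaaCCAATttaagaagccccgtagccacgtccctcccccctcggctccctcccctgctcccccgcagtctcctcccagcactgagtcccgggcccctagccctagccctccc
Col3a1: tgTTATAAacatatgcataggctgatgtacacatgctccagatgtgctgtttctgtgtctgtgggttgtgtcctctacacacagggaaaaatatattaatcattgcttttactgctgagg
Col6a3: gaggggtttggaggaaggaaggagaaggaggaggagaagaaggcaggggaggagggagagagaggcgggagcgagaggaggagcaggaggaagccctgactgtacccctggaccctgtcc
Col16a1: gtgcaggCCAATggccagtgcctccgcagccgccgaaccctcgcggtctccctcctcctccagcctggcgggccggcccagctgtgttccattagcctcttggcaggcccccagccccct
The Col1a2 stretch is chr6:4505498-4505617 on the plus strand, with a CCAAT whose first base lies 109 bases before the start. For Col3a1 it is chr1:45311418-45311537 on the plus strand, where TTATA and TATAA overlap, beginning 118 and 117 bases before the start. The Col6a3 stretch, chr1:90843972-90844091 on the minus strand, holds none of the 3 motifs in these 120 bases. In the Col16a1 stretch, chr4:130047720-130047839 on the plus strand, CCAAT begins 113 bases before the start. Of the 42 members 33 had a window in the table (36 windows), and 9 of the 12 genes that fell in both strains did (10 windows). Over the 250 bases before the start CCAAT occurred in 3 of these 10 windows, 13 of the 36 collagen windows (36.1%) and 33.8% of all 32851 windows. TATAA occurred in 1 of the 10, 19.4% of the collagen windows and 22.8% of all, and GGGCGG in 6 of the 10, 58.3% of the collagen windows and 32.7% of all. The share of all windows covers every window of the table, not only those of genes measured here. A motif match describes the letters only.

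Among the fibrillar chains Col3a1 fell furthest. It had read 12.15, 11.87 and 12.28 in A/J after ovalbumin and read 10.40, 9.63 and 9.88 with resiquimod, while in C57BL/6 it went from 12.06, 12.14 and 12.09 to 10.64, 10.83 and 10.68. The falls were -2.13 ± 0.15, adjusted p = 1.64e-07 in A/J, a 4.37-fold difference and the largest of any member, and -1.38 ± 0.15, adjusted p = 1.88e-05 in C57BL/6, a 2.60-fold difference. Col1a1 went from 9.40, 8.84 and 9.33 to 7.53, 7.02 and 7.10 in A/J (-1.98 ± 0.15, adjusted p = 4.86e-07). In C57BL/6 it went from 9.32, 9.41 and 9.31 to 8.16, 8.11 and 8.11 (-1.22 ± 0.15, adjusted p = 7.44e-05). The highest resiquimod array of A/J for both genes was the first, the array of that group with squamous transcripts. Col1a2, the partner chain of Col1a1 in type I collagen, went from 10.61, 10.30 and 10.61 to 9.22, 8.61 and 8.93 in A/J (-1.59 ± 0.12, adjusted p = 4.86e-07). The C57BL/6 values were 10.55, 10.52 and 10.59 and 9.71, 9.71 and 9.76 (-0.83 ± 0.12, adjusted p = 0.000375). Both type I chains thus fell in both strains, each by more in A/J as estimated, with the test of that difference given further on.

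The type V chains Col5a1 and Col5a2, which regulate fibril diameter, fell in both strains. Col5a2 went from 9.03, 8.59 and 9.08 to 7.72, 7.51 and 7.80 in A/J (-1.22 ± 0.11, adjusted p = 2.16e-06) and from 8.83, 8.90 and 8.94 to 8.01, 8.12 and 7.93 in C57BL/6 (-0.87 ± 0.11, adjusted p = 6.96e-05). Col5a1 went from 7.78, 7.41 and 7.59 to 6.99, 6.48 and 6.59 (-0.91 ± 0.11, adjusted p = 9.03e-05) and from 7.80, 7.79 and 7.64 to 6.96, 7.08 and 6.93 (-0.75 ± 0.11, adjusted p = 0.000447). All 3 probe sets of Col5a1 and both of Col5a2 were called lower in both strains. Col5a3 was not called, at -0.62 ± 0.20, adjusted p = 0.0784 in A/J and -0.49 ± 0.20, adjusted p = 0.172 in C57BL/6, and its values lay below the median of all values on 16 of 18 arrays. Col27a1, a fibrillar chain best known from cartilage, fell in A/J (-0.43 ± 0.10, adjusted p = 0.0125) and was -0.28 ± 0.10, adjusted p = 0.101 in C57BL/6. Its A/J call was lost without A/J ovalbumin 3 or A/J resiquimod 3, and its second probe set was not called (-0.24). The cartilage chains Col2a1, Col11a1 and Col11a2 and the related Col24a1 were below the median on all 18 arrays and were not called. In all, 6 of 11 fibrillar chains fell in A/J, with a class median of -0.62, and 5 in C57BL/6, with a median of -0.49.

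**Figure D2:**
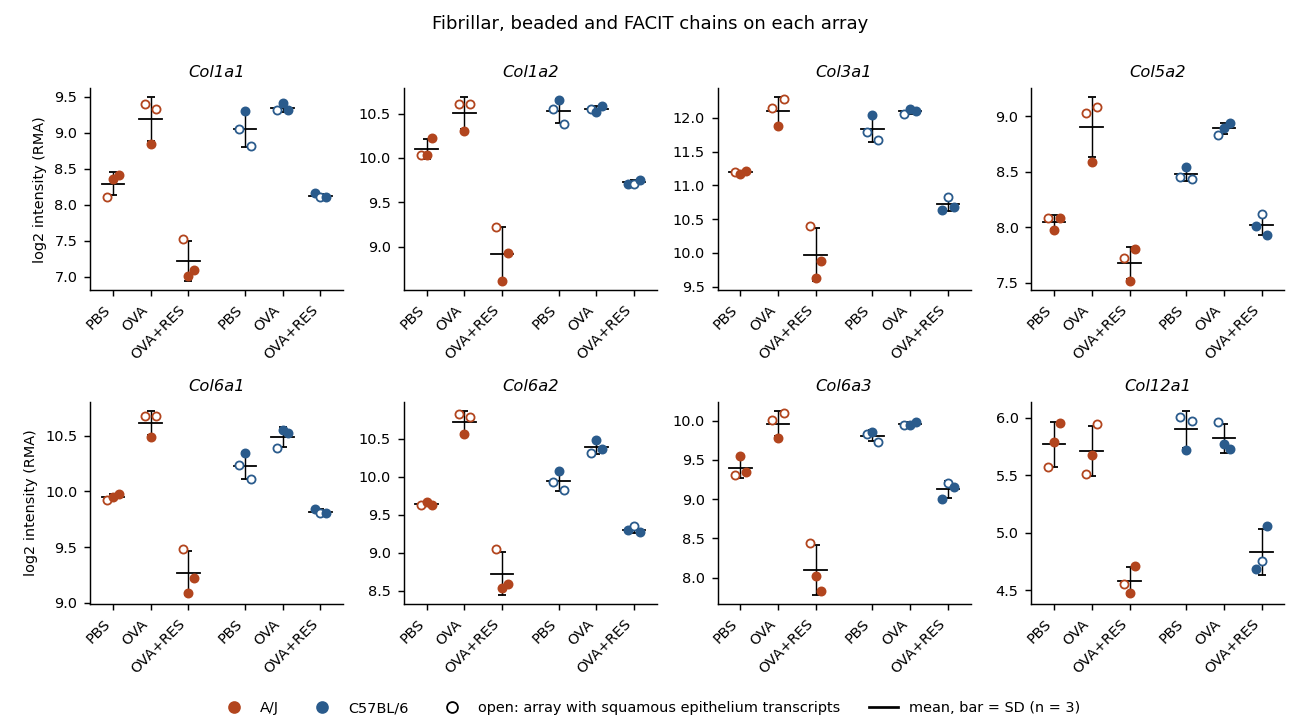
Log2 RMA intensity of 8 fibrillar, beaded and FACIT chain genes on each of the 18 arrays, by strain and treatment (PBS, OVA for ovalbumin, OVA+RES for ovalbumin with resiquimod). Horizontal lines are means and bars SD (n = 3), and open circles are the arrays with squamous epithelium transcripts. In each panel every resiquimod array lies below every ovalbumin array of its strain.

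The type VI chains Col6a1, Col6a2 and Col6a3 fell in both strains. Col6a2 went from 10.82, 10.56 and 10.79 to 9.05, 8.53 and 8.59 in A/J and from 10.31, 10.49 and 10.36 to 9.30, 9.34 and 9.27 in C57BL/6. The falls were -1.998 ± 0.11, adjusted p = 1.89e-08, or 3.99-fold, and -1.08 ± 0.11, adjusted p = 1.23e-05, or 2.12-fold, and its second probe set gave nearly the same values, -1.98 and -1.08. Col6a3, the long chain of the heterotrimer, went from 10.01, 9.78 and 10.09 to 8.44, 8.02 and 7.82 in A/J (-1.87 ± 0.12, adjusted p = 1.08e-07). In C57BL/6 it went from 9.94, 9.95 and 9.98 to 9.00, 9.21 and 9.16 (-0.83 ± 0.12, adjusted p = 0.000385). Col6a1 went from 10.67, 10.49 and 10.68 to 9.48, 9.09 and 9.23 in A/J (-1.35 ± 0.09, adjusted p = 1.37e-07) and from 10.39, 10.55 and 10.53 to 9.84, 9.80 and 9.80 in C57BL/6 (-0.67 ± 0.09, adjusted p = 0.00018). The 3 C57BL/6 resiquimod arrays were tightly grouped for Col6a1 and Col6a2, with an SD of 0.02 and 0.04, against 0.20 and 0.28 in A/J. Col6a1 and Col6a2 are neighbouring genes in the RefSeq annotation, as are Col3a1 and Col5a2. The other type VI chains, Col6a4 and Col6a5, were below the median of all values on all arrays and were not called in this comparison, with Col6a4 at -0.15 ± 0.11 and -0.11 ± 0.11.

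Among FACIT chains, Col12a1, found on type I fibrils, went from 5.51, 5.67 and 5.94 to 4.55, 4.47 and 4.71 in A/J (-1.13 ± 0.13, adjusted p = 4.07e-05) and from 5.97, 5.77 and 5.73 to 4.69, 4.76 and 5.06 in C57BL/6 (-0.99 ± 0.13, adjusted p = 0.000134). It had read 5.57, 5.79 and 5.95 and 6.01, 5.72 and 5.98 under PBS, overlapping the ovalbumin values in both strains, and in each strain the 3 resiquimod arrays lay below the other 6. Its second probe set was called lower in A/J (-0.33, adjusted p = 0.0303) and not in C57BL/6 (-0.11, adjusted p = 0.565), and its other 2 had means below the 25th percentile of all values. Col14a1, a close relative, went from 7.91, 7.54 and 7.83 to 7.05, 6.51 and 6.87 in A/J (-0.95 ± 0.12, adjusted p = 0.000136), and from 7.80, 7.57 and 7.67 to 7.28, 7.40 and 7.12 in C57BL/6, where it was not called (-0.41 ± 0.12, adjusted p = 0.0563). Col16a1 fell in both strains, by smaller amounts (-0.55 ± 0.08 and -0.34 ± 0.08). The other 6 FACIT chains (Col9a1, Col9a2, Col9a3, Col19a1, Col20a1 and Col22a1) were not called, and 5 of them lay below the median of all values on every array.

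**Figure D3:**
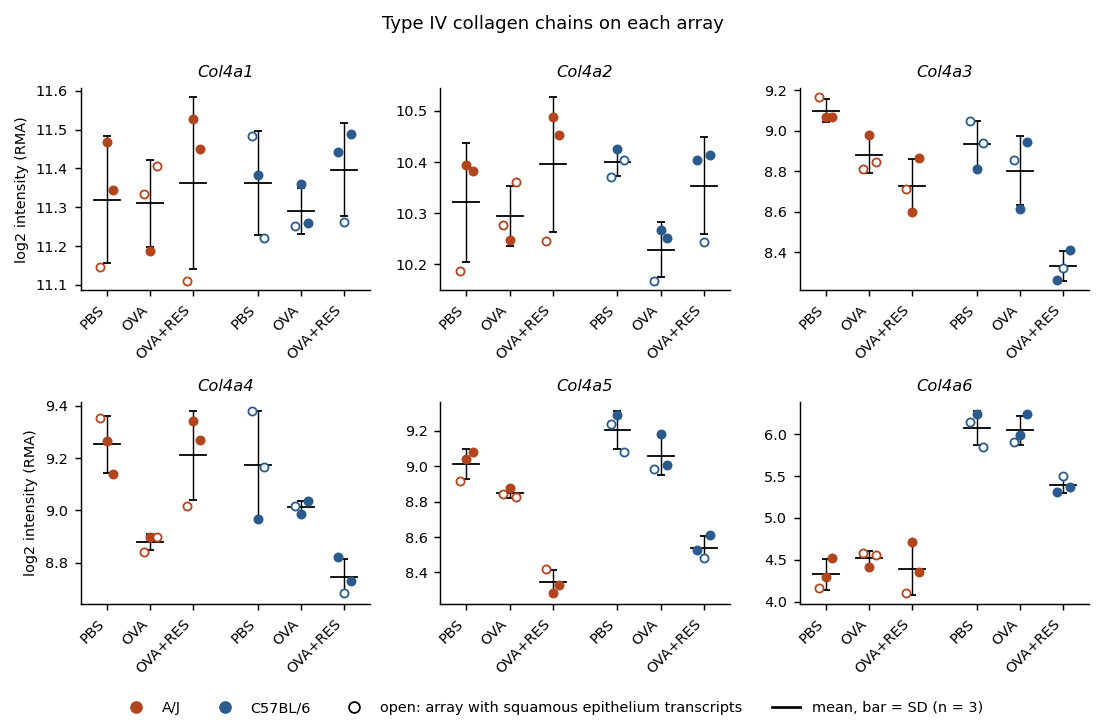
Log2 RMA intensity of the 6 type IV collagen chain genes on each of the 18 arrays, by strain and treatment. Lines are means, bars SD (n = 3), and open circles arrays with squamous epithelium transcripts. Col4a1 and Col4a2 stay within 0.42 and 0.32 of log2 over all arrays, Col4a5 is low on the resiquimod arrays of both strains, and all 9 A/J arrays lie below all 9 C57BL/6 arrays for Col4a6.

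The basement membrane chains did not change together with resiquimod. Col4a1 and Col4a2, which form the ubiquitous α1α1α2 sheet and are neighbours in the annotation, were bright and were called in none of 9 comparisons. Col4a1 lay between 11.11 and 11.53 over all 18 arrays, with resiquimod changes of 0.05 ± 0.11 in A/J and 0.11 ± 0.11 in C57BL/6. Col4a2 lay between 10.17 and 10.49, with changes of 0.10 ± 0.08 and 0.13 ± 0.08. The second probe set of Col4a1 was an exception, called higher in C57BL/6 (0.35, adjusted p = 0.0171). Col4a5, the X-linked chain of the α3α4α5 sheet, went from 8.84, 8.88 and 8.82 to 8.42, 8.28 and 8.33 in A/J (-0.50 ± 0.08, adjusted p = 0.000449). In C57BL/6 it went from 8.98, 9.18 and 9.01 to 8.53, 8.48 and 8.61 (-0.52 ± 0.08, adjusted p = 0.000314). Its second probe set was also called lower in both strains.

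The chains that join Col4a5 were called in C57BL/6 alone or in neither strain. At the brightest probe sets, the strain difference in the resiquimod effect was called for 0 of the 6 basement membrane chains. Col4a3 fell in C57BL/6, from 8.85, 8.61 and 8.94 to 8.26, 8.32 and 8.41 (-0.47 ± 0.09, adjusted p = 0.00402), and went from 8.81, 8.98 and 8.85 to 8.71, 8.60 and 8.87 in A/J (-0.15 ± 0.09, adjusted p = 0.404). Col4a6, the neighbour of Col4a5, fell in C57BL/6 from 5.90, 5.99 and 6.24 to 5.31, 5.504 and 5.37 (-0.65 ± 0.14, adjusted p = 0.00841). In A/J it was 4.58, 4.42 and 4.56 and then 4.10, 4.71 and 4.35, all below the median of all values, and was not called (-0.13 ± 0.14). Its dimmer probe set did not share the C57BL/6 fall (-0.12). Col4a4, the neighbour of Col4a3, went from 8.84, 8.90 and 8.90 to 9.02, 9.34 and 9.27 in A/J and from 9.02, 8.99 and 9.03 to 8.82, 8.69 and 8.73 in C57BL/6, and neither change was called (0.33 ± 0.10 and -0.27 ± 0.10). The strain difference in these 2 Col4a4 changes was 0.60 ± 0.14, adjusted p = 0.0559. For 1 of its 2 other probe sets that difference, at 0.54, passed the threshold with adjusted p = 0.0342, and that probe set was called lower in C57BL/6 (-0.44).

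Of the 11 other chains, Col15a1 fell in both strains. This multiplexin, which links basement membrane to the interstitium, went from 5.81, 5.59 and 5.86 to 4.64, 4.88 and 4.57 in A/J (-1.05 ± 0.12, adjusted p = 3.01e-05) and from 5.69, 5.22 and 5.27 to 4.88, 4.76 and 4.58 in C57BL/6 (-0.65 ± 0.12, adjusted p = 0.00202). Col18a1, the multiplexin whose C-terminal fragment is endostatin, fell in A/J from 7.75, 7.500 and 7.61 to 6.79, 6.73 and 6.86 (-0.83 ± 0.08, adjusted p = 7.48e-06). In C57BL/6 its values were 7.34, 7.42 and 7.35 and then 7.16, 7.001 and 7.21 (-0.24 ± 0.08, adjusted p = 0.0817), with a call at the second probe set (-0.48, adjusted p = 0.00191). Col8a1 fell in C57BL/6, from 5.34, 5.33 and 5.28 to 4.81, 4.88 and 4.92 (-0.45 ± 0.11, adjusted p = 0.0224), and in A/J was 5.65, 5.65 and 5.91 and then 5.63, 6.12 and 5.71, a change of 0.08 ± 0.11. The C57BL/6 call was lost when any 1 of the 6 arrays compared was left out, and the other probe sets gave -0.28 and 0.09, neither called.

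**Figure D4:**
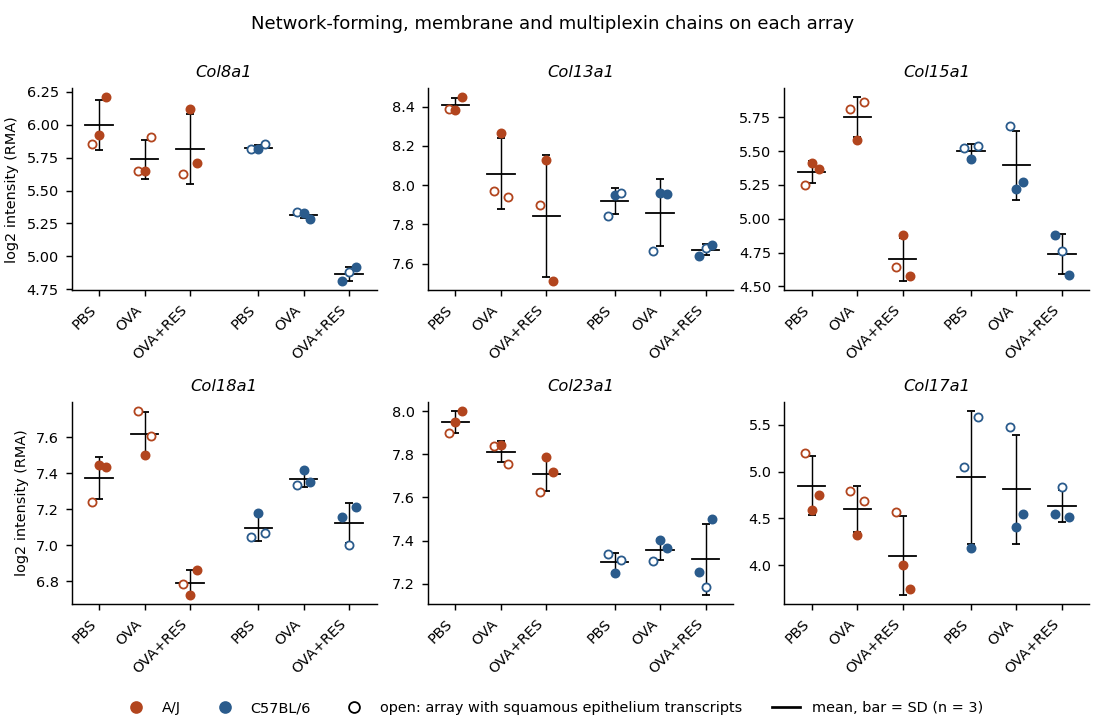
Log2 RMA intensity of 6 chain genes outside the fibrillar, beaded, FACIT and type IV classes on each of the 18 arrays, by strain and treatment. Lines are means, bars SD (n = 3), and open circles arrays with squamous epithelium transcripts. All 9 A/J arrays lie above all 9 C57BL/6 arrays for Col23a1, and Col17a1 reaches 5.59 on the open circles and 4.75 on the filled ones.

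Without the arrays that hold squamous transcripts 13 members remained called for resiquimod in A/J and 11 in C57BL/6. The largest A/J falls, and those of the same genes in C57BL/6, had nearly the same size there. Col3a1 was at -2.12 ± 0.13 and -1.45 ± 0.10, Col1a1 at -1.78 ± 0.11 and -1.23 ± 0.09, Col6a2 at -1.996 ± 0.11 and -1.14 ± 0.09, and Col6a3 at -1.86 ± 0.14 and -0.89 ± 0.11 in A/J and C57BL/6. Among the other A/J falls, Col5a2 and Col15a1 were smaller there (-0.93 ± 0.14 and -0.86 ± 0.16) and Col16a1 and Col4a5 larger (-0.63 and -0.57). The A/J estimates of that fit rest on 1 ovalbumin array. The calls lost were Col27a1 (-0.27) and Col4a5 (-0.57) in A/J and Col15a1 (-0.52), Col16a1 (-0.38), Col4a3 (-0.44) and Col8a1 (-0.44) in C57BL/6. Of 16 further probe sets of called members 14 had the same direction in A/J and 14 in C57BL/6, and none was called in the opposite direction.

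Set against PBS, resiquimod with ovalbumin left 18 members lower in A/J (42.9%, beside 11.1% of all genes, 5.86% called higher and 5.27% lower) and 16 lower in C57BL/6 (38.1%, beside 16.8% of all genes, 9.61% called higher and 7.16% lower). None was higher, and the called members' groups did not overlap, as for 29.8% of all genes in A/J and 36.5% in C57BL/6. Of these, 13 were called in both strains, 72.2% of the A/J list and 81.2% of the C57BL/6 list. Col6a3 read 9.30, 9.55 and 9.35 under PBS and 8.44, 8.02 and 7.82 with resiquimod in A/J (-1.31 ± 0.12, adjusted p = 4.51e-06), and 9.84, 9.86 and 9.73 and 9.00, 9.21 and 9.16 in C57BL/6 (-0.68 ± 0.12, adjusted p = 0.00129). Col3a1 was -1.22 ± 0.15 and -1.12 ± 0.15, Col1a2 -1.18 ± 0.12 and -0.81 ± 0.12, and Col12a1 -1.19 ± 0.13 and -1.07 ± 0.13 in A/J and C57BL/6. Col8a1 was lower in C57BL/6 (-0.96 ± 0.11), where its PBS, ovalbumin and resiquimod arrays did not overlap, and Col13a1, a transmembrane collagen, was lower in A/J (-0.56 ± 0.13). Some calls were lost when single arrays were left out. Col5a2 in A/J (-0.37 ± 0.11, adjusted p = 0.044) was lost in 13 of 18 fits that left out 1 array, all except those without A/J ovalbumin 1, 2 or 3, A/J resiquimod 3 or C57BL/6 resiquimod 2. Col14a1 in A/J (-0.51 ± 0.12) was lost without A/J PBS 1 or 2 or A/J resiquimod 2, Col4a3 in A/J (-0.37 ± 0.09) without A/J PBS 1 or A/J resiquimod 1 or 2, and Col6a4 in A/J (-0.43 ± 0.11) without A/J PBS 1 or A/J resiquimod 1. In C57BL/6, Col16a1 (-0.31 ± 0.08) was lost without C57BL/6 PBS 1 or C57BL/6 resiquimod 3, and Col4a4 (-0.43 ± 0.10) without C57BL/6 PBS 1. When only the groups compared were fitted, Col5a2, Col14a1, Col4a3, Col6a4 and Col13a1 in A/J and Col16a1 in C57BL/6 were not called. Without the arrays that hold squamous transcripts the counts were 15 and 11. Both comparisons use the resiquimod arrays that also serve the comparison with ovalbumin.

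The resiquimod effect was larger in A/J than in C57BL/6 for 4 members when the difference itself was tested, beside 1.24% of all genes (0.357% higher and 0.879% lower). Of these, 3 were chains of type VI collagen. The differences, A/J minus C57BL/6, were -1.03 ± 0.18, adjusted p = 0.0117 for Col6a3, -0.91 ± 0.16, adjusted p = 0.0138 for Col6a2 and -0.68 ± 0.13, adjusted p = 0.0241 for Col6a1. The fourth was Col18a1 at -0.58 ± 0.12, adjusted p = 0.0283. Col1a2 (-0.76 ± 0.17, adjusted p = 0.0525), Col1a1 (-0.75 ± 0.22, adjusted p = 0.121) and Col3a1 (-0.75 ± 0.21, adjusted p = 0.116) had estimates in the same direction and were not called. Among all 42 members 13 that were not called had an unadjusted p under 0.05, again with no share of all genes beside it. The count was 2, in place of 4, in the fits without A/J ovalbumin 1, A/J ovalbumin 3, C57BL/6 ovalbumin 1, C57BL/6 resiquimod 1 or C57BL/6 resiquimod 3. It was 7 without A/J ovalbumin 2 and 8 without A/J resiquimod 1. In the fit to the 10 arrays without squamous transcripts none was called, with estimates of -0.97 ± 0.18, -0.85 ± 0.14, -0.61 ± 0.14 and -0.51 ± 0.14. None was called either when only the groups compared were fitted, with adjusted p from 0.058 to 0.0783.

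Averaged over the 3 treatments, 15 members differed between the strains, 5 higher and 10 lower in A/J. At 35.7% this stands beside 23% of all genes, 11.5% called higher and 11.5% lower. How many of all genes keep the strains apart on every array was not computed, so such separations stand here without that share. Probes were designed on a reference sequence, and sequence differences between the strains under the probes were not examined.

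Col4a6 differed most. Its A/J values were 4.17, 4.29 and 4.52 under PBS, 4.58, 4.42 and 4.56 after ovalbumin and 4.10, 4.71 and 4.35 with resiquimod. Its C57BL/6 values were 6.14, 6.24 and 5.84, 5.90, 5.99 and 6.24 and 5.31, 5.504 and 5.37. All 9 A/J arrays lay below all 9 C57BL/6 arrays and below the median of all values, a difference of -1.43 ± 0.08, adjusted p = 8.18e-10 or 2.69-fold, and the second probe set gave the same difference, -1.43. Col23a1, a transmembrane collagen, was higher in A/J on every array. It read 7.90, 7.95 and 8.001, 7.84, 7.84 and 7.75 and 7.63, 7.79 and 7.72 in the A/J groups. In C57BL/6 it read 7.34, 7.25 and 7.31, 7.30, 7.40 and 7.37 and 7.25, 7.19 and 7.501. The difference was 0.50 ± 0.04, adjusted p = 1.89e-07, and both further probe sets were called in the same direction (0.24 and 0.47).

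Col8a1 was higher in A/J by 0.51 ± 0.07, adjusted p = 1.66e-05, a mean over groups that were close under PBS (5.85, 5.92 and 6.21 in A/J and 5.81, 5.82 and 5.85 in C57BL/6) and apart after resiquimod (5.63, 6.12 and 5.71 and 4.81, 4.88 and 4.92). Col13a1 was higher by 0.29 ± 0.07, adjusted p = 0.00826, with 8.39, 8.38 and 8.45 against 7.84, 7.95 and 7.96 under PBS, 7.97, 8.27 and 7.94 against 7.66, 7.96 and 7.96 after ovalbumin, and 7.90, 8.13 and 7.51 against 7.64, 7.68 and 7.70 with resiquimod. For Col13a1 the strains were apart under PBS and overlapped after ovalbumin and with resiquimod. Col4a3 (0.21 ± 0.05) and Col10a1 (0.20 ± 0.06) were also higher in A/J, the latter below the 25th percentile on average. The 10 lower members included 6 fibrillar chains, Col1a1 (-0.61 ± 0.09), Col3a1 (-0.46 ± 0.09), Col1a2 (-0.43 ± 0.07), Col5a1 (-0.26 ± 0.07), Col5a2 (-0.25 ± 0.06) and Col27a1 (-0.19 ± 0.06), and the beaded chains Col6a3 (-0.48 ± 0.07) and Col6a1 (-0.23 ± 0.05). Col4a5 was lower too (-0.20, limma adjusted p = 0.00268), and its second probe set was not called. These differences were not the same under each treatment. After ovalbumin the A/J and C57BL/6 means were close for Col3a1 (12.10 and 12.10), Col5a2 (8.90 and 8.89) and Col6a3 (9.96 and 9.96). For Col6a1 the A/J mean was then higher (10.62 and 10.49). It was lower for Col1a1, Col1a2, Col5a1 and Col27a1. Probe sets also disagreed on part of the strain differences. The second probe set of Col1a1 gave -0.10 (adjusted p = 0.36), that of Col3a1 -0.07 (adjusted p = 0.728) and that of Col5a2 0.04 (adjusted p = 0.693), whereas the second probe set of Col1a2 gave -0.46 (adjusted p = 0.000286). The strain difference was thus called at 1 of 2 probe sets for Col1a1, Col3a1 and Col5a2. The third probe set of Col1a2 had a mean of 3.05, below the 25th percentile of all values, and was not read for a change. The call of Col27a1 was lost without C57BL/6 PBS 1. In the fit without the squamous arrays 13 members were called, and Col10a1, Col13a1 and Col4a3 lost their call.

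There were 19 members called in none of the 9 comparisons, and 16 of these had means below the median of all values. They include the 3 type IX chains and Col2a1, Col11a1 and Col11a2, all known from cartilage. Of the 10 cartilage markers, Matn1, Cnmd and Hapln1 lay between 2.41 and 3.48 on all arrays and Acan between 4.04 and 4.71. Chad, of the same list, was called higher with ovalbumin in both strains, as given further on. The mean of the 10 cartilage markers lay within 4.18 to 4.66 over the 18 arrays. Col17a1, a hemidesmosome component of stratified and basal epithelium, had the widest range among the members never called, 3.74 to 5.59. It ran from 4.57 to 5.59 (median 4.94) on the 8 arrays with squamous transcripts and from 3.74 to 4.75 (median 4.46) on the other 10. Col7a1, which forms the anchoring fibrils below such epithelia, lay between 4.31 and 4.84.

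The wider collagen pathway was read from lists of genes by role, chosen with earlier results of these data known. For ovalbumin in A/J, 3 of 22 measured genes of collagen folding and modification rose, Sec24d, a coat protein for procollagen export (0.39 ± 0.08), P4hb, the β subunit of prolyl 4-hydroxylase (0.36 ± 0.07), and Ppib, a prolyl isomerase of the endoplasmic reticulum (0.33 ± 0.07), and none was called in C57BL/6. Of all genes 3.2% were called higher in A/J and 1.44% in C57BL/6. Of 18 genes of collagen breakdown and uptake 7 rose in A/J and 5 in C57BL/6. They were led in both by Timp1, an inhibitor of matrix metalloproteinases (2.83 ± 0.15 and 2.56 ± 0.15), and Mmp12, the macrophage elastase (2.56 ± 0.29 and 2.01 ± 0.29). The third was Ctsk, cathepsin K, in A/J (1.57 ± 0.18) and Mrc1, a mannose receptor of macrophages, in C57BL/6 (0.72 ± 0.12). Of 14 fibril-associated proteoglycans and glycoproteins, Tnc, tenascin C, rose in A/J (1.07 ± 0.19) and Prelp fell (-0.27 ± 0.06), with none called in C57BL/6. The list medians in A/J were 0.10 for folding, 0.19 for breakdown and -0.07 for fibril-associated genes, beside -0.0043 for all genes. The folding count fell to 1 without A/J ovalbumin 3, and the fibril-associated count to 1 without A/J PBS 2 or 3 or A/J ovalbumin 1 or 3. Without the squamous arrays the A/J counts were 0 for folding, 2 for breakdown and 0 for fibril-associated genes, and the C57BL/6 breakdown count was 2.

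With resiquimod, some collagen processing genes fell, and most were not called. Of all genes 5.39% were called lower and 4.38% higher in A/J, and 4.6% lower and 5.8% higher in C57BL/6, the shares to set beside this and the following list counts for resiquimod. Of 12 measured genes of propeptide cleavage and crosslinking 3 fell and 1 rose in A/J and 4 fell in C57BL/6. Pcolce, which enhances removal of the procollagen C-propeptide, fell by more than any other gene of the list (-1.91 ± 0.12, adjusted p = 6.43e-08 in A/J and -0.82 ± 0.12, adjusted p = 0.000409 in C57BL/6), and its relative Pcolce2 fell too (-0.83 ± 0.09 and -0.38 ± 0.09), as did the collagen-binding protein Sparc in C57BL/6 (-0.39 ± 0.08) and A/J (-0.68 ± 0.08). Lox, the lysyl oxidase that crosslinks collagen, rose in A/J (1.71 ± 0.15, adjusted p = 2.31e-06) and was -0.20 ± 0.15, adjusted p = 0.528 in C57BL/6, and this difference between strains was itself called (1.91 ± 0.21, adjusted p = 0.000411). Of 22 genes of folding and modification 4 fell in either strain, led by P3h3 (-0.73 ± 0.08), Crtap (-0.46 ± 0.07) and P4ha1 (-0.44 ± 0.07) in A/J and by P3h2 (-0.52 ± 0.10), Plod2 (-0.35 ± 0.07) and P3h3 (-0.29 ± 0.08) in C57BL/6, all enzymes or partners that hydroxylate prolines or lysines of the chains. The collagen chaperone Serpinh1, named after its values were seen, was not called (-0.46 ± 0.16 and -0.12 ± 0.16). Of 14 fibril-associated genes 9 fell in A/J, led by Fmod, fibromodulin (-2.25 ± 0.44), Lum, lumican (-1.72 ± 0.50), and Tnc (-1.40 ± 0.19), and 4 fell in C57BL/6, led by Tnc (-1.01 ± 0.19), Aspn, asporin (-0.75 ± 0.22), and Postn, periostin (-0.41 ± 0.07). The list medians in A/J and C57BL/6 were -0.24 and -0.24 for cleavage and crosslinking, -0.20 and -0.09 for folding, and -0.41 and -0.30 for fibril-associated genes.

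Counts in these lists moved with single arrays. The fibril-associated count in A/J was 5 without A/J ovalbumin 1 or without A/J resiquimod 2. The folding count was 8 without A/J resiquimod 1 in A/J and 2 in C57BL/6 without C57BL/6 ovalbumin 2 or C57BL/6 resiquimod 1. Without the squamous arrays the counts were 1 and 1 for folding and 2 and 2 for fibril-associated genes in A/J and C57BL/6, and 2 in C57BL/6 for cleavage and crosslinking.

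Among breakdown genes, resiquimod raised Mmp8, the neutrophil collagenase, in both strains (2.34 ± 0.30 in A/J and 1.54 ± 0.30 in C57BL/6). It lowered Timp1 (-2.000 ± 0.15 and -1.49 ± 0.15) and Mmp12 (-2.28 ± 0.29 and -1.09 ± 0.29). In all 3 of 18 rose and 4 fell in A/J, and 3 rose and 6 fell in C57BL/6. The C57BL/6 count of 9 dropped to between 2 and 5 when C57BL/6 ovalbumin 2 or 3 or any C57BL/6 resiquimod array was left out, and to 3 in the fit without squamous arrays, which also gave 3 in A/J. Of 11 measured collagen receptors, Lair1, an inhibitory receptor of leukocytes, rose in both strains (0.78 ± 0.16 and 1.70 ± 0.16), and Ddr2, a receptor for fibrillar collagen, fell in both (-0.33 ± 0.08 and -0.34 ± 0.08). Adgrg6, a receptor for type IV collagen, fell in A/J (-0.39 ± 0.08) and Itga1, an integrin chain that binds collagen, rose in C57BL/6 (0.49 ± 0.09). Of 19 basement membrane partners 4 fell in A/J and 3 in C57BL/6, led in both by Lama3, a laminin chain of epithelial basement membrane (-0.71 ± 0.09 and -0.56 ± 0.09), and Frem1 (-0.69 ± 0.15 and -0.54 ± 0.15). The C57BL/6 count was 1 without C57BL/6 ovalbumin 3 or C57BL/6 resiquimod 1, and without the squamous arrays the A/J count was 0, as it was for collagen receptors in A/J.

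The TGF-beta pathway, a main inducer of collagen genes, had 6 of 20 measured genes lower and 3 higher in A/J and 9 lower and 2 higher in C57BL/6. The largest changes in A/J were Ltbp4, a binding protein that stores latent TGF-beta in the matrix (-0.67 ± 0.08), and Itgb6 and Itgb8, integrin chains that release it (-0.66 ± 0.16 and -0.66 ± 0.14). In C57BL/6 they were Itgb8 (-0.73 ± 0.14), Ccn2 (-0.71 ± 0.17) and Ltbp3 (-0.61 ± 0.08). Of the ligands, named after their values were seen, Tgfb2 fell in both strains (-0.46 ± 0.11 and -0.61 ± 0.11), Tgfb3 fell in both (-0.39 ± 0.09 and -0.34 ± 0.09), and Tgfb1 rose in C57BL/6 (0.61 ± 0.12). The C57BL/6 count of 11 was 7 without C57BL/6 ovalbumin 3 or C57BL/6 resiquimod 3. Without the squamous arrays the counts were 2 and 4.

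Of 12 fibroblast markers, 5 fell and 1 rose with resiquimod in A/J, the largest falls being Lum (-1.72 ± 0.50), Mfap4 (-1.53 ± 0.19) and Mfap5 (-1.10 ± 0.16). The marker that rose was Pdgfra, a receptor of lung fibroblasts named after its value was seen (0.30 ± 0.07). In C57BL/6, Mfap5 fell (-0.61 ± 0.16) and Thy1, which T cells also express, rose (1.05 ± 0.13), and the other 10 were not called. That C57BL/6 count of 2 was 5 with the mean of all probe sets of a gene, 4 with a filter on low values and 4 with trended, robust moderation. With ovalbumin 3 of the 12 had fallen in A/J (1.18% of all genes were called lower), Mfap4 (-0.74 ± 0.19), Inmt (-0.29 ± 0.07) and Pdgfra (-0.28 ± 0.07), a count of 0 or 1 when any A/J PBS or A/J ovalbumin array, C57BL/6 PBS 1 or C57BL/6 resiquimod 1 was left out. The mean of the 12 ran from 9.33 to 9.64 in A/J ovalbumin and 8.93 to 9.19 in A/J resiquimod, and from 9.5001 to 9.71 and 9.37 to 9.51 in the C57BL/6 groups. Dcn, Dpt, Lum, Npnt, Mfap4 and Mfap5 encode matrix proteins themselves, so this list is not separate from the matrix. Of 12 smooth muscle and pericyte markers 6 fell in A/J and 7 in C57BL/6, led by Actg2 (-1.28 ± 0.13 and -1.18 ± 0.13), Tagln (-0.71 ± 0.08 and -0.76 ± 0.08) and Acta2 (-0.71 ± 0.09 and -0.93 ± 0.09). With ovalbumin 5 of these 12 had risen in A/J (3.2% of all genes were called higher) and 2 in C57BL/6 (1.44% of all genes), Actg2 by 1.27 ± 0.13 and 0.90 ± 0.13. Without the squamous arrays these ovalbumin counts were 1 and 1. Their mean ran from 8.42 to 8.45 in A/J ovalbumin and 7.94 to 8.08 in A/J resiquimod, and from 8.51 to 8.62 and 7.999 to 8.11 in C57BL/6.

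Of 8 T and NK cell markers 4 rose and 1 fell in A/J, and 4 rose in C57BL/6. The 4 were the same in both strains, Gzmb, Prf1, Nkg7 and Ncr1, genes of cytotoxic and NK cells. Cd3e, a chain of the T cell receptor complex named after its values were seen, fell in A/J (-0.30 ± 0.08) and was 0.03 ± 0.08 in C57BL/6, where it was not called. The mean of the 8 T and NK cell markers ran from 4.92 to 5.07 in A/J ovalbumin and 6.18 to 6.56 in A/J resiquimod, and from 4.97 to 5.01 and 6.60 to 6.88 in C57BL/6, with Gzmb, a granule protease of cytotoxic cells, at 3.52 ± 0.18 and 4.31 ± 0.18. Of 10 macrophage markers 5 rose and 1 fell in A/J, and 8 rose in C57BL/6, led in A/J by Marco, a scavenger receptor (1.97 ± 0.24 and 1.79 ± 0.24 in the 2 strains). The alveolar epithelial mean ran from 11.51 to 11.61 in A/J ovalbumin and 11.48 to 11.57 in A/J resiquimod, and from 11.44 to 11.58 and 11.29 to 11.41 in C57BL/6. The part of cell composition in the fall of the collagen chains was not tested. Counts for resiquimod without the squamous arrays were 2 in A/J for fibroblast and for smooth muscle markers, 6 in C57BL/6 for smooth muscle markers, and 3 in A/J and 5 in C57BL/6 for macrophage markers. The C57BL/6 fibroblast count was 1 without C57BL/6 ovalbumin 1 or 3 or any C57BL/6 resiquimod array, while the A/J macrophage count was 3 without A/J ovalbumin 2.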

How the data were processed

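Whole-lung RNA of 18 mice was measured on Affymetrix whole-genome mouse arrays. The deposited log2 intensities were made by the authors with RMA in the affy package, per the submitters' processing notes, with no version given. Nothing was renormalized. Control probe sets (64 of 45101) were left out, and 45037 were fitted together with limma 3.58.1 in R 4.3.3 (12 residual degrees of freedom, Benjamini-Hochberg adjustment over all of them, called under 0.05), with 6 group means and 9 comparisons. The number of arrays, 3 a group, limits the precision. Probe sets were named from GEO's platform annotation: 34945 have 1 gene symbol, 932 several and 9160 none. All 42 members were described; of the genes in the other lists, up to 3 called genes with the largest change were named per list and comparison, and exceptions are marked. Members, lists and tests were chosen with earlier results of these data known. The fit was tested on simulated data. Alternatives tried were other scalings, filters, moderation, weights, probe set rules, a replicate block and leaving out arrays. Promoter stretches come from RefSeq (GRCm38.p6). The genome build of the arrays' annotation is not given in the sources used here.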

Additional observations from a re-analysis of the deposited data

Results flagged for a closer look

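In 4 collagen chains the resiquimod effect differed between A/J and C57BL/6 lungs by the limma test of the difference itself. The differences, A/J minus C57BL/6 on the log2 scale, were -1.03 for Col6a3, -0.91 for Col6a2, -0.68 for Col6a1 and -0.58 for Col18a1. The 3 type VI chains fell in both strains, and the brightest probe set of Col18a1 was called in A/J. The cause of the differences was not tested.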

How the results depend on the processing

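No called change of a member reversed under any alternative run. Leaving out 1 array at a time gave 5 to 9 called members for ovalbumin in A/J, 0 to 2 in C57BL/6, 14 to 16 for resiquimod against ovalbumin in either strain, 14 to 18 in A/J and 14 to 17 in C57BL/6 for resiquimod against PBS, 15 to 17 between strains, 0 to 0 for the strain difference in the ovalbumin effect and 2 to 8 for that in the resiquimod effect. The C57BL/6 ovalbumin count of 1 became 2 with the mean of all probe sets of a gene, and Col8a1, the member called in the main fit, was not among these. It became 2 with a filter on low values and 3 with trended, robust moderation. The strain difference in the resiquimod effect gave 0, in place of 4, when only the groups compared were fitted. Without the 8 arrays with squamous transcripts, an alternative chosen after seeing the data, the ovalbumin counts were 1 in A/J and 0 in C57BL/6, and that strain difference gave 0. That fit has fewer samples.

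With the replicate number as a block the counts were 7 and 1 for ovalbumin, where 6 of the 7 A/J members were shared and Col4a4 was lost, 17 and 16 for resiquimod against ovalbumin, 18 and 16 against PBS, 15 between strains, 0 and 4 for the strain differences. The numbers were not taken to pair the arrays. Deviations from the group mean correlated above 0.1 in 27 of 45 same-numbered pairs. The median r was 0.18 for the same number and -0.132 for other numbers, and 7 of 18 arrays correlated best with their own number. The first array of every group except C57BL/6 resiquimod holds squamous transcripts, so the block is not separate from these. Signal over background limits the 18 members below the median of all values.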

Other observations

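Some genes of the marker lists stood out by value, and were chosen after their values were seen. Chad, chondroadherin, a cartilage matrix protein that binds collagen, rose with ovalbumin in A/J (0.99 ± 0.13, SE, n = 3 per group) and in C57BL/6 (0.83 ± 0.13), and fell with resiquimod in both (-0.60 ± 0.13 and -0.87 ± 0.13). Cytl1, of the same list, fell with resiquimod in A/J (-0.60 ± 0.08). Of all genes 3.2% were called higher with ovalbumin in A/J and 1.44% in C57BL/6. The cartilage count for resiquimod in A/J was 2 of 10, and it was 1 without A/J resiquimod 2 and 1 without the arrays that hold squamous transcripts. Without those arrays no cartilage marker was called for ovalbumin by limma in either strain, against 1 of 10 in each with all arrays.

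Of 10 endothelial markers 3 rose and 1 fell with resiquimod in either strain. Emcn, endomucin, fell in A/J (-0.53 ± 0.10) and rose in C57BL/6 (0.73 ± 0.10), and limma called the difference between strains (-1.26 ± 0.15, adjusted p = 0.00049). Tek, the angiopoietin receptor, rose in both (0.35 ± 0.10 and 0.38 ± 0.10). The A/J count of 4 was 2 without A/J ovalbumin 3, A/J resiquimod 2 or A/J resiquimod 3. The C57BL/6 count of 4 was 2 without C57BL/6 ovalbumin 2, C57BL/6 resiquimod 1 or C57BL/6 resiquimod 3. Without the arrays that hold squamous transcripts the counts were 0 and 2, and with only the groups compared in the fit they were 1 and 4.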
